A study of Homo sapiens with 15 samples.

Results

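The 10 genes LUM, DCN, BGN, VCAN, POSTN, THBS1, THBS2, SPARC, FBN1 and ELN encode proteoglycans, matricellular proteins and elastic fibre proteins of the connective tissue matrix. They were taken by gene name from the deposited expression table, and all 10 were found among its 15790 genes. Expression was read by RNA sequencing in cultures of 2 human cell lines. RPTEC/TERT1 cells come from human renal proximal tubule epithelium and fHDF/TERT166 cells are dermal fibroblasts of foreskin, and both lines are immortalized. The 5 groups, of 3 libraries each, were co-cultures of both lines on LN/FN-silk, a membrane with recombinant spider silk (silk co-culture), co-cultures on LN/PC membranes (LN/PC co-culture), fHDF/TERT166 alone (fibroblast monoculture), and RPTEC/TERT1 alone on LN/FN-silk (silk monoculture) or on LN/PC (LN/PC monoculture).

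All cultures were taken 14 days after seeding. Epithelial cells went in at 140000 and fibroblasts at 14000 per cm2, and co-cultures were kept in the epithelial medium with 0.5% serum, whereas fibroblasts were expanded with 10% serum. Each sample pooled 3 to 8 membranes. Silk membranes were scraped off, LN/PC membranes were cut from the holder, and the fibroblasts were scraped from the well bottom, so membrane and way of harvest cannot be told apart. These fibroblasts are named basolateral in the protocol and monocultures in the sample titles. No label states whether replicates came from different cultures of these single lines, so p-values reflect only how far these libraries spread, and that spread may be technical.

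Small leucine-rich proteoglycans such as lumican (LUM), decorin (DCN) and biglycan (BGN) bind collagen fibrils and influence their width and spacing. Matricellular proteins, among them periostin (POSTN), the thrombospondins (THBS1, THBS2) and SPARC, act less as building blocks than as regulators of cell contact with the matrix. Versican (VCAN) is a large chondroitin sulfate proteoglycan that binds hyaluronan, fibrillin-1 (FBN1) forms microfibrils, and tropoelastin (ELN) is laid down on them to make elastic fibres.

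Library totals ran from 9.08 to 12.7 in units of 1e6 normalized counts, and 1 read was worth about 0.760 to 1.27 normalized counts. Markers of the fibroblast (12 genes, none of them among the 10) summed to 176 to 890.3 in the silk co-cultures, 93372 to 162221 in the LN/PC co-cultures, 447423 to 513656 in the fibroblast monocultures, 95.9 to 114 in epithelium alone on silk and 35.9 to 90.1 in epithelium alone on LN/PC. The silk co-culture libraries, labelled as holding both lines, thus carried fibroblast marker RNA at a level far below that of the LN/PC co-cultures. Of the 12 markers, TWIST1 and DPT were at 0 in all 3 silk co-cultures. In the silk monocultures 5 were at 0 in all libraries, these 2 and COL3A1, PRRX1 and FAP. Of 12 renal epithelial markers, 11 were in the table. They summed to 22477 to 34616 over the 12 libraries with epithelial cells and to 9867 to 11960 in the fibroblast monocultures, where CDH16, CDH1, KRT18, SLC17A1 and SLC17A3 were among those at 0. In these bulk samples, fewer or no fibroblasts at harvest and less RNA per fibroblast cannot be told apart, so silk co-culture names how the cultures were labelled and not a measured content. Smooth muscle and pericyte markers, 4 of 7 in the table, summed to 265 to 346 in the silk co-cultures, 1262 to 1845 in the LN/PC co-cultures, 2346 to 2799 in the fibroblast monocultures, 229 to 309 in epithelium alone on silk and 336 to 408 in epithelium alone on LN/PC. Of the endothelial, keratinocyte and leukocyte markers, 1 gene each was in the table. The leukocyte marker was at 757 to 885 in the silk co-cultures and 522.7 to 581 in the fibroblast monocultures and 85.8 to 501 in the other groups, the keratinocyte marker at 158 to 342 over all libraries, and the endothelial marker at 0 to 97.7.

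The genes lie on 7 chromosomes in the RefSeq annotation of GRCh38.p14, a build used here for position and sequence only. LUM (chr12:91102629-91111494) and DCN (chr12:91140484-91182817) are neighbours, 28989 bp apart with 0 protein-coding genes between them. VCAN (chr5:83471744-83582302) and SPARC (chr5:151661096-151686915) share chromosome 5, and THBS1 (chr15:39581079-39599466) and FBN1 (chr15:48408313-48645709) share chromosome 15. THBS2 is at chr6:169215785-169253846, ELN at chr7:74028173-74069907, POSTN at chr13:37562585-37598768 and BGN at chrX:153494980-153509546. RefSeq promoters were on hand for 7 of the 10 genes. In the RefSeq promoter table, the 250 bases before each listed start were searched on both strands for 3 motifs, the TATA box (TATAAA), the site of TEAD factors (CATTCC) and the site of AP-1 (TGANTCA). These were held by 10.7%, 11.9% and 6.57% of all 35116 promoters of that length. The 6 promoters below, of genes with contrasting patterns across the cultures, are written 5′ to 3′ on the gene's strand with motif matches in capitals, none of which overlap.
POSTN: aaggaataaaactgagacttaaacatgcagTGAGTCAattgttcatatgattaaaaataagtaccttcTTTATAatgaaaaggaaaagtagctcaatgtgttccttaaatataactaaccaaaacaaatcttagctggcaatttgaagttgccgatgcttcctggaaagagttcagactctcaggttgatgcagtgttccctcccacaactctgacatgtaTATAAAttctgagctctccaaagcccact
THBS2: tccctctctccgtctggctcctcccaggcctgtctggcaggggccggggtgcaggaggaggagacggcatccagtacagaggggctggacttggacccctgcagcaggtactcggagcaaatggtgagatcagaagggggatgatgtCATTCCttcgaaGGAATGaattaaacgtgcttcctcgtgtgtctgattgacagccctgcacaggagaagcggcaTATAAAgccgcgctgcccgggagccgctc
SPARC: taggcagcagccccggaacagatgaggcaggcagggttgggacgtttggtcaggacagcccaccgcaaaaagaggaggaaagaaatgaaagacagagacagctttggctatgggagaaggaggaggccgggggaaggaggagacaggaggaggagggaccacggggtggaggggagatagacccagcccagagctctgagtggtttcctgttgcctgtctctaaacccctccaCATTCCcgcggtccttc
THBS1: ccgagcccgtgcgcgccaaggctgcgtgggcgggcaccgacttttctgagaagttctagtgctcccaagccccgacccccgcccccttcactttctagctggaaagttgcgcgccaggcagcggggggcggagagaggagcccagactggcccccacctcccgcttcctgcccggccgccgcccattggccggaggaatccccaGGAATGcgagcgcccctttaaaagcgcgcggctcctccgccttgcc
VCAN: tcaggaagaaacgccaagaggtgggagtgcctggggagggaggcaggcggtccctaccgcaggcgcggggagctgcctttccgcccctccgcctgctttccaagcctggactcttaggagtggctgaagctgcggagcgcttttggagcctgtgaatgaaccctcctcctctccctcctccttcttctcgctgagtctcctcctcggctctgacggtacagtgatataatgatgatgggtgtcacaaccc
BGN: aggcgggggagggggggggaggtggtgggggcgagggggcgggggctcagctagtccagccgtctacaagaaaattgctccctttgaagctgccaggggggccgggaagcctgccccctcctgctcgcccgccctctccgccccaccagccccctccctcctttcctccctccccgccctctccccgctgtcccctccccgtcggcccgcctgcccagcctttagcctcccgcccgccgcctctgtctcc

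POSTN (chr13:37598769-37599018, minus strand) held 2 TATA motifs and 1 AP-1 motif, and THBS2 (chr6:169253847-169254096, minus strand) held 1 TATA and 2 TEAD motifs. In both, a TATA motif began 29 bases before the start. SPARC (chr5:151686916-151687165, minus strand) and THBS1 (chr15:39580829-39581078, plus strand) each held 1 TEAD motif. The FBN1 window, which also held 1, lies at chr15:48644971-48645220 on the minus strand, before a listed start inside the gene and not before its outer 5′ end. VCAN (chr5:83471494-83471743, plus strand) and BGN (chrX:153494730-153494979, plus strand) held none of the 3. GC content was 36.4% for POSTN and 74% for BGN, against a median of 58% over all promoters. A motif match describes the sequence and was not tested as a site.

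The fibroblast monocultures were set against the 6 epithelial monocultures to ask which line supplies the transcripts. Of the 10 genes, 9 were higher in fibroblasts and 1, VCAN, was lower. A call is an adjusted p under 0.05 by limma with Benjamini-Hochberg adjustment, and differences are on the log2(value + 1) scale, which understates the change of low genes. Over all 14502 genes tested, 58.3% were called, with 28.0% higher and 30.3% lower. The median log2 difference was 10.57 over the 10 genes, or 10.21 with genes at 0 in one group set at their bound, against -0.02 over all genes.

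The collagen-binding proteoglycans were nearly all fibroblast transcripts. DCN had 57859.5, 63118 and 52898 normalized counts in the fibroblast monocultures, against 56.7, 60.8 and 111 in epithelial monocultures on silk and 51.4, 53.5 and 49.3 in the LN/PC monocultures. Every fibroblast library was thus far above every epithelial one, and the log2 difference was 9.86 ± 0.19 (SE, adjusted p = 6.06e-12). LUM had 7686, 6846 and 5862 in the fibroblast monocultures, against 0 in all silk monocultures and 0.655, 0 and 0.927 in the LN/PC monocultures. With an estimated 1.48 reads over the epithelial libraries, the ratio of the group means was 25785 for LUM, with a 95% counting interval of 5968 to 370831 that leaves out the spread between libraries. BGN had 380.2, 438 and 354 in the fibroblast monocultures, against 0 in epithelial monocultures on silk and 3.72, 3.45 and 2.58 in the LN/PC monocultures (log2 difference 7.57 ± 0.25, adjusted p = 3.15e-10).

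POSTN, a matricellular protein tied to collagen assembly, was at 0 in all 6 epithelial monocultures and had 4260.1, 4706 and 3930.2 normalized counts in the fibroblast monocultures. With 3 reads per library as the floor, POSTN was higher by at least 1512-fold in fibroblasts (adjusted p = 6.06e-12). SPARC, a collagen-binding matricellular protein, had 37998, 40270.0 and 36486 in fibroblasts, against 3.55, 5.65 and 3.25 in epithelial monocultures on silk and 14.9, 14.7 and 10.7 in the LN/PC monocultures. No epithelial library came near the fibroblast ones, with a log2 difference of 12.14 ± 0.20 (adjusted p = 1.84e-12). The 2 thrombospondins, adhesion-modulating proteins that also act on growth factors and proteases, differed in how far they were restricted to fibroblasts. THBS2 had 5899, 6102 and 6662 in the fibroblast monocultures and 0 to 3.81 in the epithelial monocultures (11.28 ± 0.31, adjusted p = 6.76e-11). THBS1 had 53757, 58385 and 57468 in the fibroblast monocultures, against 5332, 4586 and 4224 in epithelial monocultures on silk and 2729, 1057 and 2001 in the LN/PC monocultures. The epithelial line was thus a source of THBS1 transcripts of its own, and the log2 difference was 4.28 ± 0.25 (adjusted p = 3.47e-08).

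ELN and FBN1 split in the same way. ELN had 3278, 4027 and 3939 normalized counts in the fibroblast monocultures and was at 0 in 5 of the 6 epithelial monocultures, with 2.25 in silk monoculture 2. Over an estimated 2.15 epithelial reads, its ratio was 10014 with a counting interval of 2884 to 74115. FBN1 had 29828, 31745 and 29719 in fibroblasts, against 1343, 1611 and 1200.5 in epithelial monocultures on silk and 1222, 1131 and 951 in the LN/PC monocultures. The log2 difference of FBN1 was 4.63 ± 0.13 (adjusted p = 9.44e-11), the smallest after THBS1 among the 9 higher genes.

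VCAN ran the other way. It had 5392, 6167 and 5510.4 normalized counts in the fibroblast monocultures, against 35517, 26517 and 24408 in epithelial monocultures on silk and 22037, 17005 and 14819 in the LN/PC monocultures. The highest fibroblast library lay below the lowest epithelial one, and VCAN was 3.95-fold lower in fibroblasts on the log2(value + 1) scale (-1.98 ± 0.19, adjusted p = 2.97e-06).

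**Figure D1:**
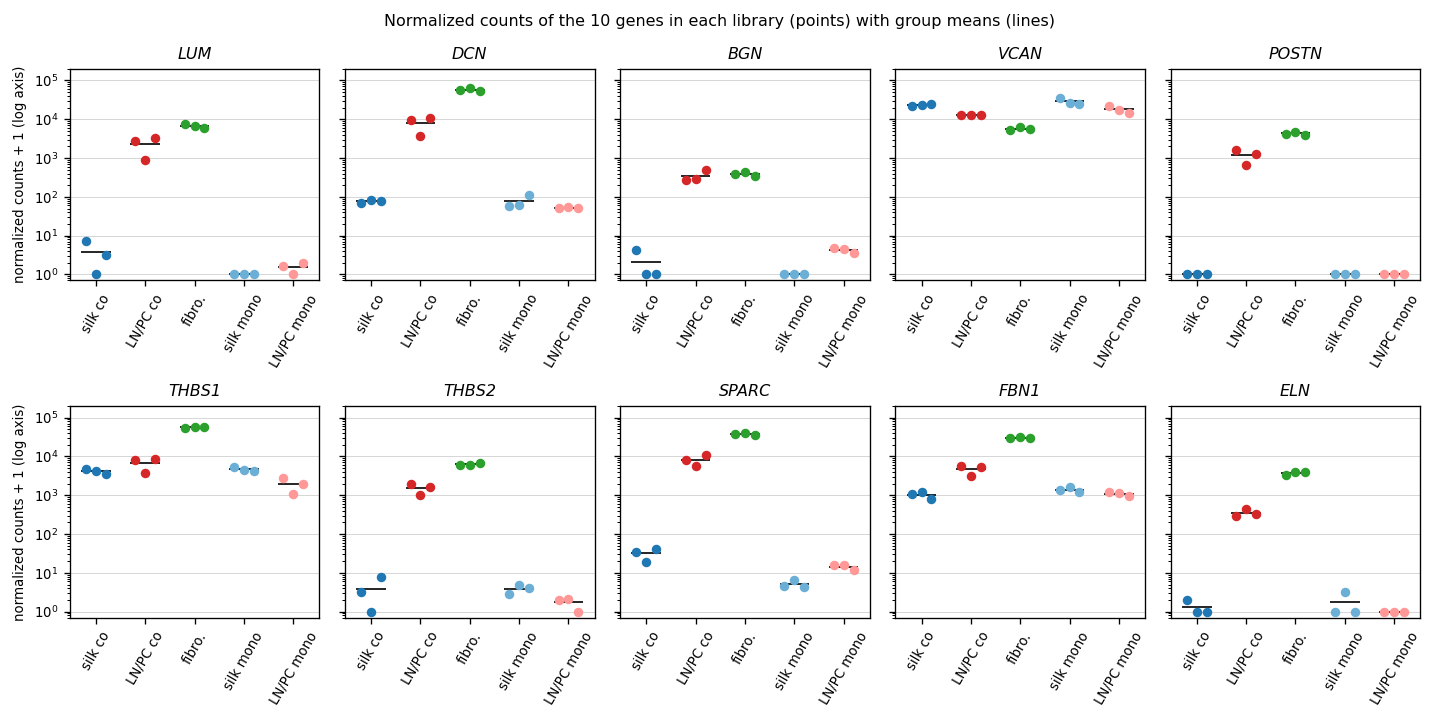
Normalized counts plus 1 (log axis) of each of the 10 genes in the 15 libraries, with 3 points per group and a line at the group mean; groups run from silk co-culture (silk co), LN/PC co-culture (LN/PC co) and fibroblast monoculture (fibro.) to silk and LN/PC monoculture (mono). LUM, BGN, POSTN, THBS2 and ELN lay at 0 to 6.63 in the silk co-cultures and all epithelial monocultures, SPARC at 3.25 to 40.3 and DCN at 49.3 to 111, and VCAN was lowest in the fibroblasts.

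Other genes of the same families gave the setting. These lists were chosen with earlier results of these data known and hold none of the 10 genes. Of the 9 other small leucine-rich proteoglycans tested, 8 were higher and 0 lower in fibroblasts. PODN, OMD and PRELP were at 0 in all epithelial monocultures, and PODN was at least 439.6-fold higher at 1250 ± 60.8 normalized counts (SD, n = 3). All 20 elastic fibre and microfibril genes tested were higher in fibroblasts, led by the fibrillin FBN2 (13.18 ± 0.29, adjusted p = 1.47e-11), the microfibril-associated MFAP4 and the lysyl oxidase family member LOXL4. Of 15 other matricellular genes, 11 were higher and 4 lower, among them COMP higher (11.65 ± 0.28, adjusted p = 2.52e-11) and SPP1, which encodes osteopontin, lower. SPP1 was at 0 in all fibroblast libraries, against 128779 ± 29780 in the epithelial monocultures (SD, n = 6), so it was at least 42325-fold lower. Of 15 hyalectan, hyaluronan and other proteoglycan genes, 9 were higher and 5 lower, with the hyaluronan synthase HAS2 at least 102-fold higher and the glypican GPC3 at least 105-fold lower. Of 21 enzymes of glycosaminoglycan chains, 11 were higher and 6 lower, and of 22 receptors and processing enzymes, 10 were higher and 7 lower. XYLT1, which starts these chains, was at least 225-fold higher, while TLR2, a receptor reported for BGN, was at least 56.9-fold lower.

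On LN/PC, co-cultures were compared with epithelial monocultures to see which of the genes appeared when fibroblasts were added. Of the 10 genes, 9 were higher in LN/PC co-cultures, 0 were lower and VCAN was not called, where 12.5% of all 14433 genes tested were called and 7.80% were called higher and 4.72% lower. The median log2 difference was 7.77 over the 10 genes, or 7.02 with genes at 0 set at their bound, against -0.04 over all genes. For all 10 the libraries of the groups did not overlap, against 25.9% of all genes. None of the 9 calls was lost under any alternative tried.

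DCN had 9415, 3657 and 10499 normalized counts in the LN/PC co-cultures, against 51.4, 53.5 and 49.3 in the LN/PC monocultures (7.09 ± 0.33, adjusted p = 4.27e-10). LUM had 2835, 873 and 3323, against 0.655, 0 and 0.927, a ratio of 4445 with a counting interval of 1028.5 to 63934 over an estimated 1.48 monoculture reads. BGN had 264, 289 and 483, against 3.72, 3.45 and 2.58 (6.31 ± 0.58, adjusted p = 7.32e-07). All co-culture libraries were above all monoculture libraries for these proteoglycans, but LN/PC co-culture 2 was the lowest for LUM and DCN and not for BGN. POSTN had 1586, 659 and 1302 in the LN/PC co-cultures and 0 in the LN/PC monocultures, at least 409-fold higher. THBS2 had 1913, 1038 and 1620.0, against 1.05, 1.16 and 0, a ratio of 2064 with a counting interval of 664 to 11526 over an estimated 2.65 monoculture reads. SPARC had 8329.8, 5597 and 11097, against 14.9, 14.7 and 10.7 (9.14 ± 0.34, adjusted p = 2.44e-11). LN/PC co-culture 2 was again the lowest of the 3 co-culture libraries for each of these matricellular genes. ELN had 284, 450.4 and 332 in the LN/PC co-cultures and 0 in the LN/PC monocultures, at least 123-fold higher, and its highest library was LN/PC co-culture 2.

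THBS1 and FBN1, which the epithelial line also expressed, had the smallest called differences. THBS1 had 8299.6, 3694 and 8380.0 normalized counts in the LN/PC co-cultures, against 2729, 1057 and 2001 in the LN/PC monocultures (1.82 ± 0.32, adjusted p = 0.000723). FBN1 had 5668, 3168 and 5343, against 1222, 1131 and 951 (2.06 ± 0.21, adjusted p = 2.35e-06). In both, LN/PC co-culture 2 was the lowest co-culture library and still lay above all 3 monocultures. VCAN had 12517, 12949.5 and 12629 in the LN/PC co-cultures, against 22037, 17005 and 14819 in the LN/PC monocultures. Its co-culture libraries all lay below the monoculture ones, but the difference of -0.48 ± 0.22 missed the threshold (adjusted p = 0.166, 0.0811 to 0.920 under the alternatives).

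In the related lists, 5 of 7 small leucine-rich proteoglycans and 16 of 20 elastic fibre genes were higher in LN/PC co-cultures and 0 lower in either list. MFAP4 and the fibulin FBLN2, both at 0 in the LN/PC monocultures, were at least 273-fold and 298-fold higher. Of 13 other matricellular genes, 8 were higher and 0 lower, including the transforming growth factor-induced matrix gene TGFBI at 6311 ± 733 in LN/PC co-cultures and 979 ± 155 in LN/PC monocultures (SD, n = 3 each; 2.69 ± 0.18, adjusted p = 1.82e-08). Of 15 other proteoglycan and hyaluronan genes, 3 were higher and 1 lower. HAS2 was at least 73.1-fold higher, and HAS3, another hyaluronan synthase, was lower (-1.02 ± 0.25, adjusted p = 0.0112). Among 20 chain enzymes, 2 were higher and 2 lower, and among 22 receptors and processing enzymes 5 were higher and 5 lower, with PCOLCE, an enhancer of procollagen processing, and the integrin subunit ITGA5 higher.

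Co-culture on silk was compared with silk monocultures by the same test. Of the 10 genes, 1 was higher, 0 were lower and 9 were not called, where 3.78% of the 14433 genes tested were called and 2.91% were called higher. SPARC was the gene called. It had 34.3, 18.0 and 40.3 normalized counts in the silk co-cultures, against 3.55, 5.65 and 3.25 in the silk monocultures. Every co-culture library was above every monoculture library, with a log2 difference of 2.58 ± 0.34 (adjusted p = 0.000298). On the deposited log2 values, whose floor compresses low values, it was 0.70 ± 0.19 (adjusted p = 0.0439). The silk co-cultures averaged 30.9 ± 11.5, which was small beside the 8341 ± 2750.4 of the LN/PC co-cultures (SD, n = 3 each). The summed fibroblast markers were also higher in the silk co-cultures than in the silk monocultures, at 176 to 890.3 against 95.9 to 114, and their part in the SPARC difference was not tested.

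POSTN was at 0 in all 6 silk libraries. LUM had 6.12, 0 and 2.26 normalized counts in the silk co-cultures and 0 in the silk monocultures, BGN had 3.32, 0 and 0 against 0, and ELN had 0.967, 0 and 0 against 0, 2.25 and 0. THBS2 had 2.17, 0 and 6.63 in the silk co-cultures, against 1.88, 3.81 and 3.03 in the silk monocultures. The group means of these 5 genes were near or under the worth of 3 reads per library, so no fold is given. None reached 10 normalized counts in a silk library, and they were tested only because the LN/PC co-cultures in the same fit did. A difference of a few reads could not be resolved at this depth. DCN had 68.9, 84.4 and 75.6 in the silk co-cultures and 56.7, 60.8 and 111 in the silk monocultures, with full overlap (0.06 ± 0.33, adjusted p = 0.955). FBN1 had 1054, 1179 and 809.6 in the silk co-cultures, all below the 1343, 1611 and 1200.5 of the silk monocultures, but was not called (-0.46 ± 0.21, adjusted p = 0.281). It was, with SPARC, 1 of 2 genes of the 10 without overlap, against 27.1% of all genes. THBS1 (-0.16 ± 0.32) and VCAN (-0.29 ± 0.22) were not called either.

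In the related lists, 4 of 13 other matricellular genes were higher in the silk co-cultures and 0 lower. CCN3, a CCN family gene, stood at 1218 ± 138 in silk co-cultures and 238 ± 38.8 in silk monocultures (SD, n = 3 each; 2.36 ± 0.17, adjusted p = 1.04e-06). TGFBI (1.03 ± 0.18) and CCN1 (0.82 ± 0.22, adjusted p = 0.0465) were higher too. Of 20 elastic fibre genes 2 were higher, both lysyl oxidases that cross-link elastin and collagen. LOX had 4172 ± 492 in silk co-cultures and 1226 ± 225 in silk monocultures (1.77 ± 0.17, adjusted p = 1.27e-05), and LOXL2 differed by 1.16 ± 0.25 (adjusted p = 0.014). Among 15 other proteoglycan genes, 4 were higher, with the hyaluronan receptor CD44, the syndecan SDC4 and GPC3 at log2 differences of 0.80 to 0.86. Of 7 small leucine-rich proteoglycans 0 were called, of 20 chain enzymes 1 was higher (CSGALNACT2), and of 22 receptors and processing enzymes 1 was higher (MET).

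**Figure D2:**
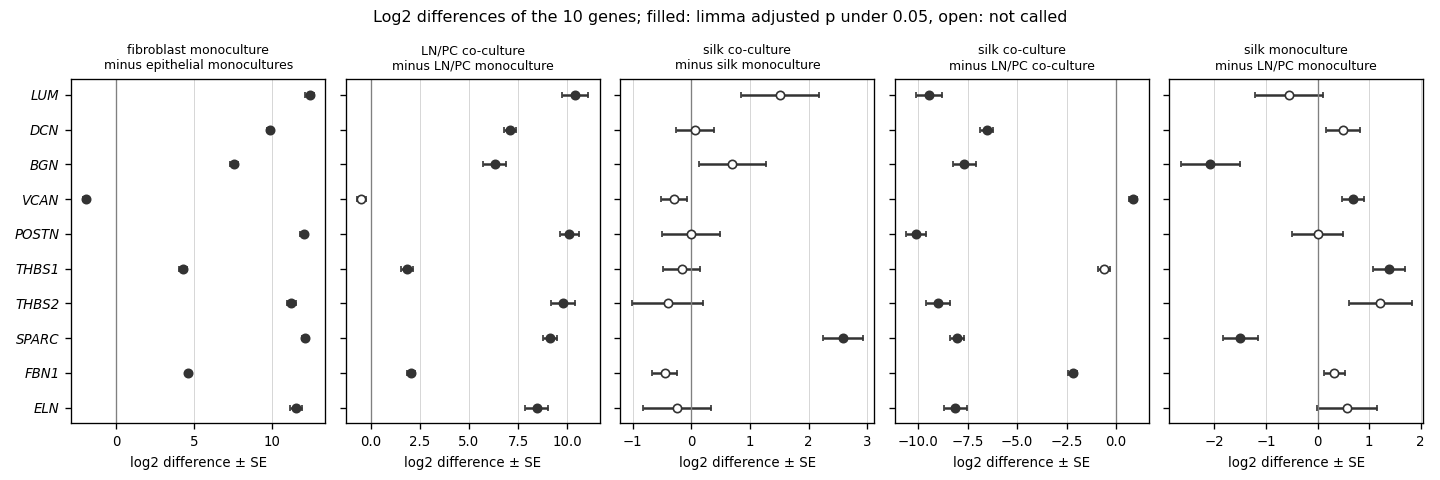
Log2 difference ± SE of each gene in 5 comparisons, one panel each with its own horizontal scale; filled points were called by limma at an adjusted p under 0.05 and open points were not. On silk, SPARC is the filled point, at 2.58, and on LN/PC every point but VCAN is filled.

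The co-cultures on the 2 membranes were then compared directly. Of the 10 genes, 8 were lower in silk co-cultures, VCAN was higher and THBS1 was not called, where 36.1% of all genes tested were called, 17.6% lower and 18.5% higher. The median log2 difference was -7.87 over the 10 genes and 0.03 over all genes. The libraries did not overlap for 9 of the 10 genes and for 53.7% of all genes. The log2 differences of the 7 genes that the epithelial line expressed little or not at all ran from -10.12 for POSTN to -6.53 for DCN (adjusted p = 1.08e-09). POSTN, at 0 in the silk co-cultures, was at least 404-fold lower, and ELN, with an estimated 1.06 reads in the silk co-cultures, had an LN/PC to silk ratio of 1103 with a counting interval of 205 to 36820. FBN1 was 4.56-fold lower (-2.19 ± 0.21, adjusted p = 1.22e-06). VCAN had 22222, 22763 and 24693 in the silk co-cultures, all above the 12517, 12949.5 and 12629 of the LN/PC co-cultures (0.87 ± 0.22, adjusted p = 0.00559). When libraries were rescaled on genes restricted to the epithelial line, the VCAN difference was 0.44 and was no longer called (adjusted p = 0.110). THBS1 differed by -0.60 ± 0.32 (adjusted p = 0.151), and was called lower on that scale (-1.03, adjusted p = 0.0231) and without LN/PC co-culture 2 (-0.99, adjusted p = 0.0238).

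The difference between the 2 co-culture effects was tested as an interaction, silk effect minus LN/PC effect. It was called for 9 of the 10 genes, all with a smaller effect on silk, where 7.73% of all genes were called 4.59% in that direction and 3.15% in the other. It was not called for VCAN (0.19 ± 0.30, adjusted p = 0.772). In the related lists, the interaction was lower for 5 of 7 small leucine-rich proteoglycans and 14 of 20 elastic fibre genes. Directly between the co-cultures, 6 of 7 small leucine-rich proteoglycans and 16 of 20 elastic fibre genes were lower on silk, with FBLN5, a fibulin needed for elastic fibre assembly, averaging 6.37 ± 10.1 in the silk group and 1039 ± 364 in the LN/PC group (SD, n = 3 each). Of 13 other matricellular genes 7 were lower and 2 higher, CCN3 among the higher (2.95 ± 0.17, adjusted p = 9.39e-09). HAS2 was lower (-6.58 ± 0.57) and HAS3 higher (2.21 ± 0.25, adjusted p = 5.94e-06), among 4 lower and 6 higher of 15 other proteoglycan and hyaluronan genes. Of 20 chain enzymes 3 were lower and 8 higher, and of 22 receptors and processing enzymes 9 were lower and 5 higher, with ITGB3, a subunit of an integrin that binds several of these proteins, higher (1.59 ± 0.16, adjusted p = 2.15e-06).

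Between the epithelial monocultures, silk was compared with LN/PC. Here 2 of the 10 genes were higher on silk, 2 were lower and 6 were not called, where 11.7% of all genes were called, 5.88% higher and 5.79% lower. The share of the 10 genes without overlap (6 of 10) stood beside 26.4% of all genes. THBS1 was higher, with 5332, 4586 and 4224 normalized counts in the silk monocultures against 2729, 1057 and 2001 in the LN/PC monocultures (1.39 ± 0.32, adjusted p = 0.0113). All silk libraries lay above all LN/PC libraries, and the call was kept under every alternative tried. VCAN was higher as well, with 35517, 26517 and 24408 against 22037, 17005 and 14819 (0.68 ± 0.22, adjusted p = 0.0495). That call sat at the threshold and was lost in several alternatives, among them a pseudocount of 0.5 (adjusted p = 0.0510), the 2 monoculture groups alone (adjusted p = 0.170), and leaving out silk monoculture 1, 2 or 3 or LN/PC monoculture 3 (adjusted p from 0.0530 to 0.190).

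SPARC was lower on silk, with 3.55, 5.65 and 3.25 normalized counts against 14.9, 14.7 and 10.7 on LN/PC (-1.50 ± 0.34, adjusted p = 0.0117). The call was lost on the deposited log2 values (-0.34, adjusted p = 0.253) and with these 2 groups alone (adjusted p = 0.178). BGN was at 0 in the silk monocultures and had 3.72, 3.45 and 2.58 on LN/PC, at least 1.16-fold lower on silk (adjusted p = 0.0296). This call rests on a few reads and was lost with a pseudocount of 5 (adjusted p = 0.158), on the deposited log2 values (adjusted p = 0.138) and without any 1 of the 6 libraries other than LN/PC monoculture 2 (adjusted p from 0.0660 to 0.0815). No monoculture library reached the 10 normalized counts needed for testing. BGN was tested here only because the LN/PC co-cultures, in the same fit, did. DCN (0.49 ± 0.33, adjusted p = 0.336) and FBN1 (0.33 ± 0.21, adjusted p = 0.319) were not called. In the related lists, GPC3 was lower on silk at 112 ± 17.8 against 526 ± 125 (SD, n = 3 each; -2.20 ± 0.22, adjusted p = 2.62e-05), the glypican GPC6 was higher (1.47 ± 0.24) and GPC1 lower (-0.98 ± 0.17, adjusted p = 0.00235), among 3 higher and 3 lower of 15. Of 20 elastic fibre genes 1 was higher and 2 lower, of 13 other matricellular genes 1 was higher (FSTL1), of 7 small leucine-rich proteoglycans 1 was lower, of 20 chain enzymes 1 was higher and 1 lower, and of 22 receptors and processing enzymes 2 were higher, ADAMTS5, a protease that cleaves versican, and ITGB3, and 1 lower (BMP1).

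**Figure D3:**
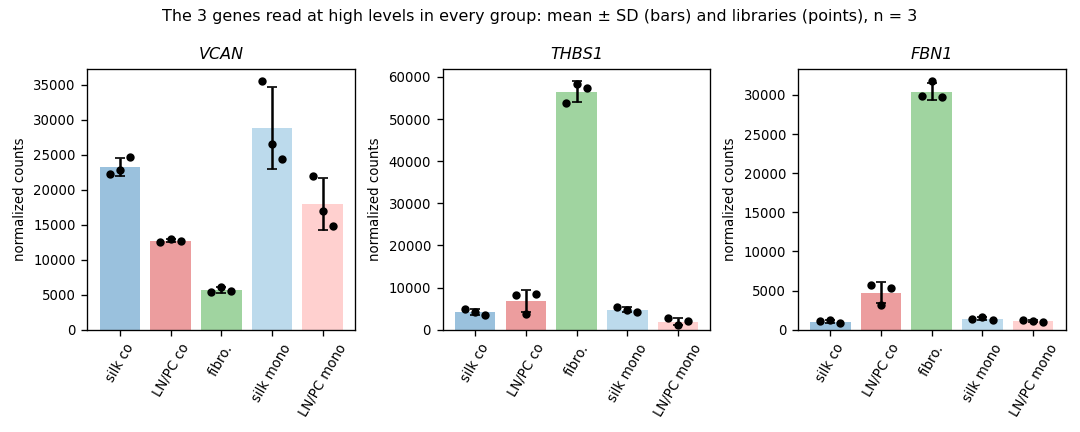
Normalized counts of VCAN, THBS1 and FBN1 in the 5 groups, silk co-culture first; bars give the mean and SD (n = 3) and points the libraries. VCAN averaged 28814 in silk monocultures and 5690.1 in fibroblast monocultures, while THBS1 and FBN1 were highest in fibroblasts.

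Set in order of group means, VCAN was highest in silk monocultures at 28814 ± 5900.3 normalized counts, followed by silk co-cultures at 23226 ± 1299, LN/PC monocultures at 17954 ± 3701, LN/PC co-cultures at 12698 ± 224 and fibroblast monocultures at 5690.1 ± 418 (SD, n = 3 each). The libraries of the silk monocultures and silk co-cultures overlapped, and those of the other neighbours in the order did not. THBS1 ran from 56537 ± 2450.3 in fibroblast monocultures through 6791 ± 2682 in LN/PC co-cultures, 4714 ± 565 in silk monocultures and 4239 ± 641 in silk co-cultures to 1929 ± 838 in LN/PC monocultures. The LN/PC co-cultures, silk monocultures and silk co-cultures overlapped in THBS1. For FBN1 the order was fibroblast monocultures at 30431 ± 1139.7, LN/PC co-cultures at 4726 ± 1359, silk monocultures at 1385 ± 209, LN/PC monocultures at 1101 ± 138 and silk co-cultures at 1014 ± 188. Neither silk monocultures against LN/PC monocultures nor silk co-cultures against silk monocultures was called for FBN1. The other 7 genes were highest in fibroblast monocultures and next in LN/PC co-cultures, and for BGN those 2 groups overlapped, at means of 345 ± 119.6 for LN/PC co-cultures and 391 ± 43.1 for fibroblasts alone.

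How much of the fibroblast level each gene reached in the LN/PC co-cultures was measured as a share, the excess over the LN/PC monocultures as a percent of the same excess in fibroblast monocultures. Over 326 other genes restricted to fibroblasts, which had a mean of 100 or more there and a level 50 or more times as high as in either epithelial monoculture group, the median share was 15.1%, 8.62% and 16.9% in LN/PC co-cultures 1, 2 and 3 (mean 13.5 ± 4.36, SD, n = 3). In the silk co-cultures it was 0%, 0% and 0.0627%. BGN reached 67.3%, 73.8% and 124% of its fibroblast level in the 3 LN/PC co-cultures (mean 88.3 ± 30.9), in each library above the upper quartile of the 326 genes, which was 15.6% to 26.9%. LUM reached 41.7%, 12.8% and 48.9% (34.5 ± 19.1), POSTN 36.9%, 15.3% and 30.3% (27.5 ± 11.0), and THBS2 30.7%, 16.7% and 26.0% (24.5 ± 7.16). SPARC averaged 21.8 ± 7.19% and DCN 13.5 ± 6.35%. FBN1 averaged 12.4 ± 4.63%, ELN 9.49 ± 2.28% and THBS1 8.90 ± 4.91%. LN/PC co-culture 2 gave the lowest share for LUM, POSTN, THBS2, SPARC, DCN, FBN1 and THBS1, the lowest median share among the 3 libraries as well, and the highest share for ELN.

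**Figure D4:**
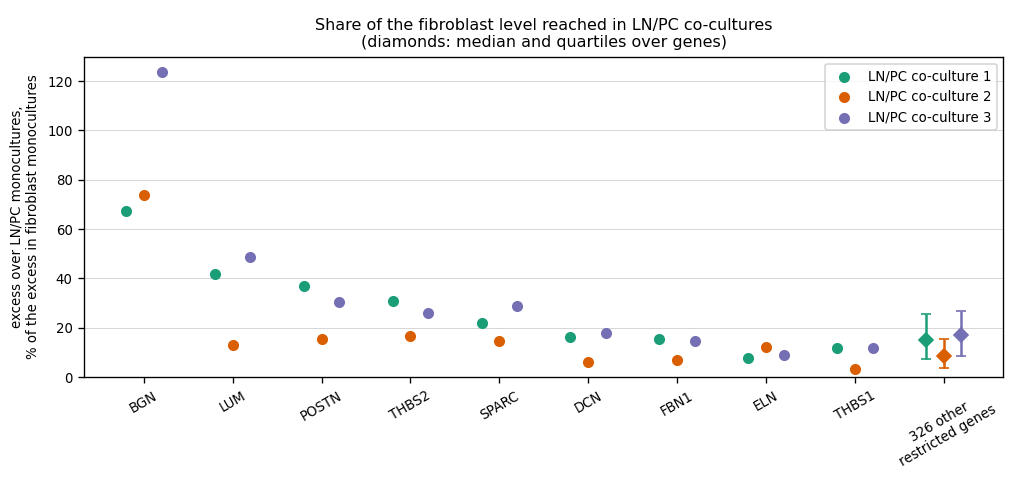
Share of the fibroblast level reached by 9 genes in each LN/PC co-culture (points, coloured by library), as the excess over LN/PC monocultures in percent of the excess in fibroblast monocultures; diamonds with bars give the median and quartiles of 326 other fibroblast-restricted genes. BGN lies at 67.3% to 124%, against medians of 8.62% to 16.9%, and VCAN is left out because it was lower in fibroblasts.

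LN/PC co-cultures were also compared with fibroblast monocultures among 333 fibroblast-restricted genes alone, after rescaling the libraries to the median ratio of the restricted genes outside the 10. A value then gives a gene's difference relative to the typical restricted gene. The genes were restricted by their level in the same fibroblast libraries they are compared with here, and the rescaling itself sets the balance of all 333 near 0, so the counts below describe the genes that passed and are no measure of composition. LUM, DCN, BGN, POSTN, THBS2, SPARC and ELN passed the restriction, while VCAN, THBS1 and FBN1 did not. Of these 7, 5 were called higher in LN/PC co-cultures and 0 lower, where 57.7% of the 333 genes were called, 28.5% higher and 29.1% lower. BGN differed by 2.65 ± 0.25 (adjusted p = 5.61e-05) and ranked 2 of 333 from the highest. LUM (1.14 ± 0.24, adjusted p = 0.00387), POSTN (0.93 ± 0.15, adjusted p = 0.000868), THBS2 (0.81 ± 0.14, adjusted p = 0.00105) and SPARC (0.63 ± 0.11, adjusted p = 0.00140) ranked 48, 67, 77 and 92. DCN (-0.14 ± 0.16, adjusted p = 0.494) and ELN (-0.53 ± 0.36, adjusted p = 0.227) were not called.

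These calls depend on the scale. On the deposited log2 values, BGN stayed called (1.85, adjusted p = 9.18e-06), while LUM, POSTN, THBS2 and SPARC were not (adjusted p from 0.230 to 0.919) and DCN (-0.98, adjusted p = 0.00473) and ELN (-1.10, adjusted p = 0.00230) were called lower. The floor of these values compresses the differences of low genes, and the median used for rescaling is taken over many such genes. Calls on this scale are thus no measure of a gene's share. That of DCN averaged 13.5 ± 6.35%, beside a typical 13.5 ± 4.36% (SD, n = 3 each). Without LN/PC co-culture 2, ELN was called lower (-1.01, adjusted p = 0.00116). Among genes of the related lists that passed the restriction, 6 of 7 small leucine-rich proteoglycans were lower in LN/PC co-cultures, with ECM2 at -2.37 ± 0.44 (adjusted p = 0.00196), OGN at -1.93 ± 0.35 and OMD at -1.27 ± 0.41 (adjusted p = 0.0261). Of 11 elastic fibre genes 7 were higher and 3 lower, including MFAP5 (1.32 ± 0.19), EFEMP2 (1.15 ± 0.14) and LOXL3 (1.34 ± 0.23) higher. HAS2 was higher (2.39 ± 0.20, adjusted p = 3.66e-05), at 211 ± 56.3 for LN/PC co-cultures and 289.9 ± 49.9 for fibroblasts alone before rescaling (SD, n = 3 each), as was XYLT1 (1.15 ± 0.21). Of 4 other matricellular genes, 2 were higher and 2 lower, SPARCL1, a relative of SPARC, among the lower (-4.70 ± 0.89, adjusted p = 0.00208). The 1 receptor or processing gene in this fit was not called.

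**Figure D5:**
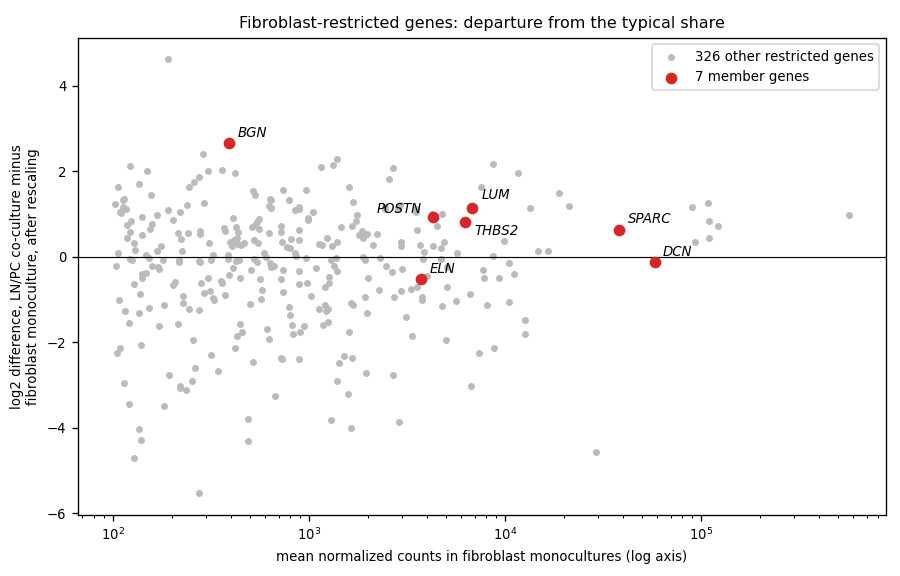
Log2 difference between LN/PC co-cultures and fibroblast monocultures after rescaling, for 333 fibroblast-restricted genes, against their mean normalized count in fibroblast monocultures (log axis); 7 of the genes described here are marked in red. BGN is at 2.65 near the top, while DCN is at -0.14 and ELN at -0.53.

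The same values were set beside an arithmetic mixture of the monocultures, in which fibroblasts contribute the median share of each library and the epithelial monoculture of that membrane the rest. In the LN/PC co-cultures BGN averaged 345 ± 119.6 normalized counts as measured and 55.7 ± 16.9 in the mixture (SD, n = 3 each), a ratio of 6.20. The ratio was 2.54 for LUM, 2.03 for POSTN, 1.81 for THBS2 and 1.61 for SPARC, 0.995 for DCN and 0.932 for FBN1. It was 0.728 for THBS1, 0.701 for ELN and 0.779 for VCAN, whose measured 12698 ± 224 lay below the 16293 ± 535 of the mixture. In the silk co-cultures SPARC had 34.3, 18.0 and 40.3 as measured and 4.15, 4.15 and 28.1 in the mixture. The median share there was 0%, 0% and 0.0627%, so in silk co-cultures 1 and 2 the mixture was only the silk monoculture mean. Any fibroblast RNA would lie above such a mixture. SPARC shares of 0.0788%, 0.0363% and 0.0945% stood at percentiles 65.0, 69.3 and 52.8 of the 326 other restricted genes. These ratios and differences from the mixture were not tested.

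Across the 15 libraries, the genes whose log2 pattern was most like each of the 10 were found by Pearson's r among 11290 genes, as a description in which the points share groups and libraries. PRRX1 was closest to LUM (r = 0.996) and to SPARC (0.994), and FST to DCN (0.997). S100A4 (0.978) and ACTA2 (0.976) were closest to BGN. LINC01133 was closest to POSTN (0.999), XYLT1 to THBS2 (0.993), TXNDC5 to FBN1 (0.994), and PLAC9 and FAM180A to ELN (both 0.995). TMEM178B (0.987) was closest to VCAN and XPOT (0.984) to THBS1.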

How the data were processed

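Poly-A RNA libraries were made with a strand-keeping kit and sequenced, per the labels' protocols. The submitters' processing notes name Salmon 1.10.3 and DESeq2, with their settings, genome build and annotation not given in the sources used here. As deposited, the table holds log2 values with a common floor of 5.53664461, the form of a variance-stabilizing transformation, which the authors call normalized counts. It was inverted with the floor as its constant, after which the median ratio over 13121 genes was 1.0117 in every library. Of low values, 34.0% to 55.3% fell within 0.1 of whole reads, which left counts unrecovered and count models unused. Gene names were used as given, and 61 names stood on several rows.

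limma 3.58.1 (R 4.3.3) with a mean-variance trend was run on log2(value + 1) for genes with at least 10 in at least 3 libraries, with Benjamini-Hochberg adjustment over all genes tested. The 4 epithelial groups shared 1 fit of 14433 genes. The script was tested on simulated data. For genes with about 1 to 3 pooled reads in a group, ratios of group means were given with exact-type (Clopper-Pearson) 95% intervals computed at the estimated reads, which need not be whole; these cover counting error only, as do floors. The 10 genes, the related lists and the markers were chosen with earlier results of these data known. The text names all 10 genes, up to 3 called genes of largest difference per list and comparison with a mean of at least 50, and the closest patterns of each gene among genes with a mean of at least 100. Alternatives were other pseudocounts (0.5 and 5), no filter, deposited log2 values, other scalings, other libraries in the fit, a replicate block and leaving out each library.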

Additional observations from a re-analysis of the deposited data

Results flagged for a closer look

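The co-culture effect differed between silk and LN/PC for 9 of the 10 genes by the interaction test in limma. The difference, silk effect minus LN/PC effect on the log2(value + 1) scale, was -10.22 for THBS2, -10.12 for POSTN, -8.91 for LUM, -8.69 for ELN, -7.02 for DCN, -6.55 for SPARC and -5.60 for BGN, with adjusted p from 1.70e-07 to 0.000310. For THBS2, POSTN, LUM, ELN and BGN, at or near 0 on silk and in the monocultures, the fitted value depends on the pseudocount and is no bound. The 2 genes that the epithelial line also expressed had smaller differences, -2.52 for FBN1 (adjusted p = 4.61e-05) and -1.98 for THBS1 (adjusted p = 0.0103). All 9 differences were called under every alternative tried. The fibroblast markers outside the 10 genes moved with them, at 176 to 890.3 in silk co-cultures against 93372 to 162221 in LN/PC co-cultures, and fewer or no fibroblasts and less RNA per fibroblast cannot be told apart.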

How the results depend on the processing

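Over the alternatives, 977 of the values for single genes kept their direction and side of the threshold, 22 lost the call with the same sign, 5 gained it and 8 changed sign. With the compared libraries alone, 1088 genes were called between LN/PC co-cultures and monocultures, against 1807 otherwise. Between silk co-cultures and monocultures 1174 were called, against 545, and between silk and LN/PC monocultures 754, against 1685. Between the monocultures 1 of the 10 genes stayed called, against 4 otherwise. LUM, BGN, POSTN, THBS2 and ELN did not pass the filter on the monocultures alone or on the silk libraries alone. BGN was thus not tested there, while VCAN and SPARC were tested and not called. Rescaling on epithelium-restricted genes called 4217 genes on LN/PC (4083 higher, 134 lower, against 1126 and 681). It moved the median of all genes to 0.40 there, to -0.40 between co-cultures (1051 higher and 5522 lower, against 2675 and 2539) and to -0.32 in the interaction (161 and 1180, against 454 and 662). It gave 581 and 72 between silk co-cultures and monocultures, against 420 and 125, and 575 and 1002 between monocultures, against 849 and 836; upper-quartile rescaling gave 360 and 185, and 1027 and 670. It moved the median of all genes to -0.12 in fibroblasts against epithelium. On the deposited log2 values 2 of the 10 genes were called between monocultures and 3 of 7 in the restricted fit. The stricter restriction (mean of 1000, 100 times) called 87 genes, against 192 of 333. It tested fewer genes, so these 2 counts do not compare like with like. Signs changed for values that were not called: DCN on silk (-0.11, -0.06 and -0.01 without silk monoculture 1, silk monoculture 2 or silk co-culture 2; range -0.11 to 0.37 over single libraries left out), THBS2 on silk (0.36 without silk co-culture 2; range -1.10 to 0.36), ELN on silk (0.33 without silk monoculture 2; range -0.57 to 0.33), the VCAN interaction (-0.16, epithelial rescaling) and DCN in the restricted fit (0.052 without LN/PC co-culture 2; range -0.25 to 0.052). SPARC there, called at 0.63, lost its call and changed sign on the deposited log2 values (-0.21, adjusted p = 0.230). The cause was not tested. Read depth limits what can be said of LUM, BGN, POSTN, THBS2 and ELN on silk.

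Leaving out 1 library in turn gave 7279 to 8711 genes called in fibroblasts against epithelium (10 of the 10 genes), 1059 to 2008 on LN/PC (9), 208 to 561 on silk (1), 3540.0 to 5006 between co-cultures (9 to 10), 695 to 3208 between monocultures (2 to 4), 725 to 1357 in the interaction (9) and 156 to 210.0 in the restricted fit (5 to 6). The lowest counts came without LN/PC co-culture 1 (1059), silk co-culture 3 (208 and 725) and LN/PC monoculture 3 (695), and the highest between monocultures without LN/PC monoculture 2 (3208). Same-numbered libraries showed no strong shared deviation (correlations of -0.234 to 0.182). With 3 libraries per group this check is weak and cannot exclude pairing, and the main fits used none. With a replicate block the counts were 8365, 1558, 443, 4811, 1317, 942 and 186 in the same order, with 3 of the 10 genes called between monocultures (VCAN 0.68, adjusted p = 0.0759). Only between silk and LN/PC co-cultures did each library correlate best with its own number.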
